A study of Mus musculus with 8 samples.

Results

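The alpha-like globin genes of the mouse lie side by side on chromosome 11, in the order Hba-x, Hba-a1 and Hba-a2, downstream of the Nprl3 gene. The 3 genes were taken by symbol from the expression tables, in which they were 3 of 11364 genes. Together with them, the 4 of 5551 KLF1 binding sites of a 200 kb window of chromosome 11 around them (mm9, NCBIM37) were taken from the site table, by position alone.

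All cells were K1, an immortalised erythroid line from Klf1-/- mouse fetal liver, so every group lacked endogenous KLF1. K1-CDA-ER cells, called K1-E339K-ER in the study, were K1 cells that carry a retroviral transgene for KLF1-E339K fused to a part of the estrogen receptor, so that the protein moves into the nucleus when 4-hydroxytamoxifen (4-OHT) is added. Newly made RNA, labelled for 30 min with 500 µM 4-thiouridine (4sU) by the sample labels, was measured in 3 K1 libraries (2 given 200 nM 4-OHT and 1 given ethanol) and in 3 K1-CDA-ER libraries given 200 nM 4-OHT, 1 from each of 3 clones. Chromatin immunoprecipitation (ChIP) with an estrogen receptor antibody was done, by the sample labels, in 1 of those clones after 3 h in 200 nM 4-OHT, as 1 ChIP library and 1 input library from pooled replicates. The wild type KLF1-ER values in the tables come from K1-ER cells of earlier work by the same laboratory, whose libraries were not analysed here.

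Hba-x encodes zeta-globin, the embryonic alpha-like chain, and Hba-a1 and Hba-a2 encode the fetal and adult alpha-globin chain of haemoglobin. In erythroid cells the alpha-like genes are switched on by a cluster of distal enhancers, several of which lie in introns of the neighbouring gene Nprl3 and are bound by GATA1 and TAL1. KLF1 is an erythroid zinc finger factor that reads CACCC-type sequences at promoters and enhancers of globin and other erythroid genes, and the E339K change sits in its second zinc finger, in contact with DNA.

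Sequences of the sites and promoters are shown first, as a description of their letters. The 9-base motif of wild type KLF1-ER given by the study has a pyrimidine at position 5 and was searched as NGGGCGTGG, NGGGCGGGG, NGGGTGTGG and NGGGTGGGG. The motif given for KLF1-E339K-ER has a purine there and was searched as NGGGAGTGG, NGGGAGGGG, NGGGGGTGG and NGGGGGGGG, with both motifs read on both strands. The central 100 bases of the 2 Nprl3 intron sites follow, on the plus strand of NCBIM37, because these sites differed in direction. Capitals mark the match nearest each midpoint with 1 base allowed to differ from a motif outside position 5.
Nprl3 site 1, chr11:32150994-32151093: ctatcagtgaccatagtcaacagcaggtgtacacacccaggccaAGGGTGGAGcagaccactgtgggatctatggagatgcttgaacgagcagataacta
Nprl3 site 2, chr11:32156234-32156333: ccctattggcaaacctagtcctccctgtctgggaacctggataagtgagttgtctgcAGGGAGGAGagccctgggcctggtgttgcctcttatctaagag

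A shorter stretch of Nprl3 site 2 held the 1 exact match to either motif in all 4 sites, which is in capitals.
Nprl3 site 2, chr11:32156177-32156205: gggaatggctGGGGTGTGGgagctcaccc

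Short stretches of the Hba-x and Hba-a2 promoters are given for the sequences near the gene starts. Capitals mark, in Hba-x, a reverse-strand copy of the Nprl3 site 1 letters followed by a reverse-strand exact purine motif, and, in Hba-a2, a pyrimidine motif with 1 mismatch at position 9. The Hba-a1 promoter has the same bases as the Hba-a2 promoter over this stretch.
Hba-x promoter, chr11:32176499-32176528: aggCTCCACCCTgcaagcCCCCTCCCCtct
Hba-a2 promoter, chr11:32196409-32196438: aactgctccaAGGGCGTGTccaccctgcct

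The first question of the study design was how wild type KLF1-ER and KLF1-E339K-ER compare in occupancy at the same sites. At the alpha-like globin locus the 2 distal sites went in opposite directions: Nprl3 site 1 was higher for wild type and Nprl3 site 2 was higher for the mutant, on the concentrations as deposited. The 2 promoter sites, at Hba-a1 and Hba-a2, had next to no reads for either protein. No site was listed at Hba-x. Of the 4 sites, 1 was at least 2-fold higher for wild type and 1 at least 2-fold higher for the mutant, and the other 2 differed by less. Over all 5551 sites, 28.7% were at least 2-fold higher for wild type and 61.5% at least 2-fold higher for the mutant, and 4 sites are too few to set the locus apart from that background. Each site has 1 pooled value for each protein, called its concentration: the mean of normalized reads, in log2, so no replicate error could be given and no difference could be tested. The series has 1 ChIP library of the mutant, so its mean is not known to average over libraries. The wild type values come from earlier work, so protein and experiment cannot be told apart in a difference.

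Nprl3 site 1 spans chr11:32150892-32151195 (304 bp), in intron 4 of the 13-exon Nprl3 transcript, with its midpoint 25.56 kb upstream of the Hba-x start, 32.63 kb upstream of the Hba-a1 start and 45.45 kb upstream of the Hba-a2 start. Its concentration was 5.79 for wild type KLF1-ER, a mean of 55.3 normalized reads. For KLF1-E339K-ER the concentration was 0.39, a mean of 1.31 normalized reads. It was well occupied in one cell line and close to the bottom of the scale in the other. The difference, wild type minus mutant, was 5.40 on the log2 scale, or 42.2-fold, and 104 of the 5551 sites (1.87%) had a larger difference in this direction. The fold rests on a mutant mean near 1 read, whose counting error is unknown because the table holds no counts. For wild type, 615 sites had a higher concentration and 4924 a lower one. For the mutant, 234 sites (4.22%) had a lower one.

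Nprl3 site 2 spans chr11:32156127-32156440 (314 bp), in intron 2 of the same transcript, 20.32 kb upstream of the Hba-x start, 27.39 kb upstream of the Hba-a1 start and 40.21 kb upstream of the Hba-a2 start. Its concentration was 3.67 for wild type, a mean of 12.7 normalized reads, and 5.56 for KLF1-E339K-ER, a mean of 47.2. Both proteins were well above the lowest values at this site, and the mutant was the higher. The difference was -1.89 on the log2 scale, or 3.71-fold in favour of the mutant, against a median of -2.60 over all sites. Relative to that median it was 0.71, so centring on the median turned its direction to wild type and left it under 2-fold. The wild type concentration was above the median of all sites (2.82), as was the mutant concentration (4.86).

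The midpoints of the Nprl3 sites are 5.24 kb apart, and their differences were 7.29 log2 units apart. Opposite neighbours of this kind also occurred elsewhere in the table. Over all sites, 28.7% were at least 2-fold higher for wild type and 61.5% for the mutant. Whether neighbouring sites share a direction more often than other pairs was not tested. Of 1467 pairs of consecutive sites within 10 kb of each other, 310 (21.1%) had 1 site at least 2-fold higher for wild type and the other at least 2-fold higher for the mutant.

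**Figure D1:**
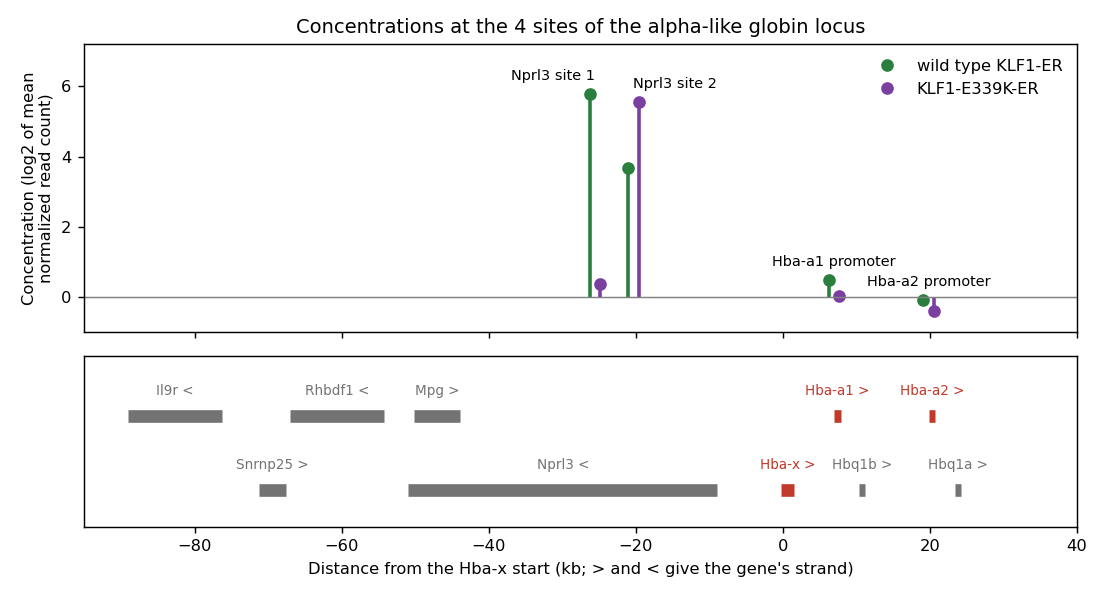
Concentration (mean normalized reads, in log2, 1 pooled value per protein, no error) at the 4 sites for wild type KLF1-ER (green) and KLF1-E339K-ER (purple), above a map of the genes, with distance from the Hba-x start in kb on the x axis. The green value is the higher at Nprl3 site 1 (5.79 against 0.39), the purple value at Nprl3 site 2 (5.56 against 3.67), and all 4 promoter values lie between -0.38 and 0.50; the paired points are drawn slightly apart for legibility.

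The Hba-a1 promoter site spans chr11:32183386-32183779 (394 bp) and overlaps the first exon of Hba-a1, with its midpoint 89.5 bp upstream of the listed start at 32183672. Its concentration was 0.50 for wild type and 0.05 for KLF1-E339K-ER, means of 1.41 and 1.04 normalized reads. The Hba-a2 promoter site spans chr11:32196262-32196573 (312 bp), with its midpoint 71.5 bp upstream of the start at 32196489. Its concentration was -0.09 for wild type and -0.38 for the mutant, which are the lowest values of the table for each protein. The lowest wild type value was shared by 1424 sites and the lowest mutant value by 147 sites, but the Hba-a2 promoter site was the 1 site of 5551 that had both. No fold is given for either promoter site, since both proteins were at or near the lowest value.

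The scatter of all sites shows how far the promoter sites lie from the rest. The larger of a site's 2 concentrations had a median of 5.29 over the table, and it was below 1 at 2 sites alone, the Hba-a1 and Hba-a2 promoter sites. The next lowest site stood at 3.67. By the study's methods the sites of the merged table came from called peaks, and these 2 sites are listed with almost no reads for both.

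**Figure D2:**
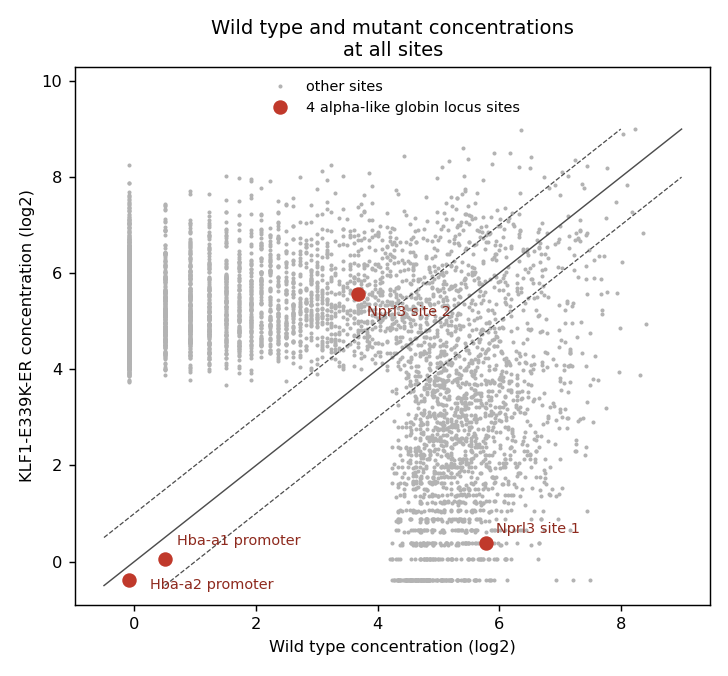
Wild type against KLF1-E339K-ER concentration (both log2) for all 5551 sites, with the solid line at equal values, the dashed lines at 2-fold and the 4 locus sites in red. The 2 promoter sites sit alone in the lower left corner, at 0.50 and 0.05 and at -0.09 and -0.38, and the next lowest site has 3.67 for its larger value.

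The Hba-a1 and Hba-a2 promoters are copies of each other. The 2 starts are 12817 bp apart, and the sequence around them is identical base for base over 1022 bp, of which 351 bp lie before the Hba-a1 start and 671 bp from it on. Both promoter sites fall inside that block. Every 100 bp window of both sites was found more than once in the mouse genome (100%), whereas the 2 Nprl3 sites had no repeated window. Of the other 5549 sites, none had more than 43.2% of its windows repeated, and 5471 of all sites (98.6%) had none. Among other sites with any repeated window, the lowest larger concentration was 4.05. The authors left out reads that mapped to more than 1 place, and their part in the low values was not tested.

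**Figure D3:**
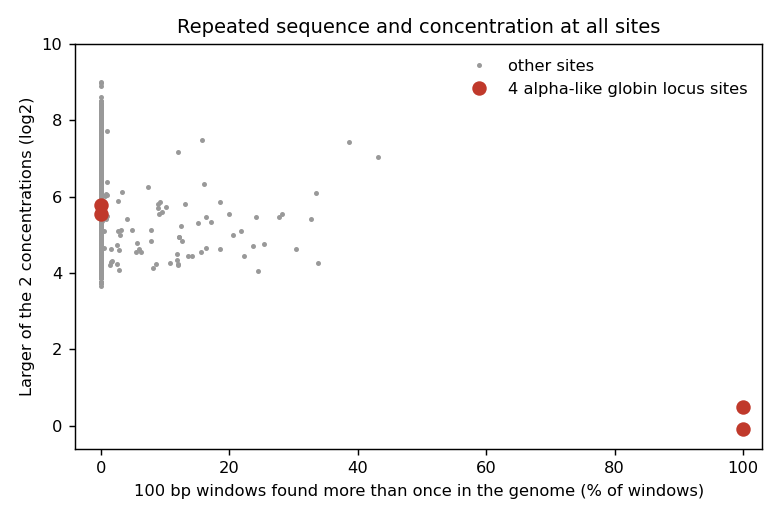
Share of a site's 100 bp windows found more than once in the genome (x axis, %) against the larger of its 2 concentrations (y axis, log2) for all 5551 sites, with the 4 locus sites in red. The 2 promoter sites stand alone at 100% with values below 1, and the 2 Nprl3 sites are at 0% with 5.79 and 5.56.

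The site table names Hba-a1 as the closest start for both promoter sites. By its position, the start at 32196489 is that of Hba-a2 in the GENCODE annotation of the same build. The table has 0 sites whose closest start is named Hba-a2 and 0 for Hba-x. Both Nprl3 sites are assigned to the Nprl3 start, 16570.5 and 11330.5 bp away, although the alpha-like genes are the known targets of enhancers in these introns. A count by closest start therefore places 2 sites at alpha-like globin genes, both of them the near-empty ones.

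Beyond the locus, the nearest site on each side was looked up, and the usual spacing of sites was not measured. The next lower site lies at chr11:31771271-31771583, 379.6 kb from the nearest locus site and closest to Cpeb4, with 2.37 for wild type and 6.98 for the mutant. The next higher one lies at chr11:33042736-33043058, 846.5 kb away and closest to Fgf18, with -0.09 for wild type and 5.30 for the mutant. That wild type value is the lowest of the table, shared by 1424 sites. Both were higher for the mutant, as were 61.5% of all sites by at least 2-fold. The 4 locus sites were the same ones when the edges of the window were moved in or out.

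The second question was whether the sites hold the sequence that each protein is reported to prefer. Within 50 bp of the midpoint, 0 of the 4 locus sites had an exact pyrimidine motif and 0 had an exact purine motif. Over all sites the shares were 35.2% and 35.5%. Among the sites at least 2-fold higher for wild type, 60.6% had the pyrimidine motif and 15.8% the purine motif, and among those at least 2-fold higher for the mutant the shares were 22.7% and 45.7%. The direction at Nprl3 site 1 and Nprl3 site 2 was thus not accompanied by an exact motif near the midpoint. The study derived both motifs from peaks of the same 2 proteins, so the shares by direction are not an independent check.

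With 1 base allowed to differ outside position 5, a search added after the data were seen, both Nprl3 sites held a match close to the midpoint. At Nprl3 site 1 the nearest match was AGGGTGGAG, a pyrimidine motif with its mismatch at position 8, centred 1.5 bp from the midpoint. At Nprl3 site 2 the nearest was AGGGAGGAG, a purine motif with its mismatch also at position 8, centred 11.5 bp from the midpoint. The 2 runs of 9 letters differ by 1 base, T5A, written as the base in site 1, the position counted from 1 at the 5′ end of the motif, and the base in site 2. Position 5 is where the motifs of the 2 proteins differ. The search allowed no mismatch there, so a pyrimidine match and a purine match must differ at that position. The difference at position 5 was thus fixed by the search and is no support for the directions of the sites. Matches with 1 mismatch are common: 77.8% of all sites had one to the pyrimidine motif and 84.9% one to the purine motif in the same window.

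The run of letters 2 to 9 is rarer and split the table by direction. The letters of site 1, GGGTGGAG, were found within 50 bp of the midpoint at 5.37% of all sites, at 9.43% of the 1591 sites higher for wild type and at 3.46% of the 3414 sites higher for the mutant. The letters of site 2, GGGAGGAG, were found at 14.9% of all sites, at 4.97% of those higher for wild type and at 19.4% of those higher for the mutant. Nprl3 site 1 and Nprl3 site 2 are each counted in these shares. At each site the letters found are those more frequent among sites of its own direction. That split is not independent support, since the study derived both motifs, which differ at position 5, from peaks of these proteins. The letters were also picked from these 2 sites after the data were seen. These shares describe the table and were not tested, and letters in a window are not evidence that the protein was bound at them.

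Other matches did not all follow the direction of the sites. Nprl3 site 1 also held TGGGTGTGT, a pyrimidine motif with a mismatch at position 9, 15.5 bp from the midpoint. Nprl3 site 2, the mutant-favoured one, held the exact pyrimidine match GGGGTGTGG 92.5 bp from its midpoint and the near match TGGGCCTGG, with a mismatch at position 6, 25.5 bp from it. So site 2 held letters of both classes.

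The GATA motif (AGATAA, where the first base may also be T and the last may also be G, read on both strands) was searched because GATA1 binds the alpha-globin enhancers. Nprl3 site 1 had TGATAG and AGATAA, centred 47 and 44 bp from its midpoint on opposite sides. Nprl3 site 2 had AGATAA 42 bp from its midpoint. Within 50 bp, 2 of the 4 locus sites held a GATA match, both of them Nprl3 sites, against 20.5% of all sites. The promoter sites held TGATAA further out, 91 bp (Hba-a1) and 109 bp (Hba-a2) from the midpoint. Within 100 bp the count was 3 of 4, against 33.1% of all sites, and over the whole site 4 of 4, against 44.4%. A GATA match thus did not set the Nprl3 sites apart from the promoter sites. The CACCC core (CCACCC) reads GGGTGG on the other strand. That run lies inside the pyrimidine form NGGGTGGGG and inside the purine form NGGGGGTGG, so the core is not particular to either motif. The core was present within 50 bp at 3 of 4 sites, against 35.3% of all sites. It was at 37.5% of the sites at least 2-fold higher for wild type and at 33.8% of those higher for the mutant. The locus site without the core was Nprl3 site 2. In Nprl3 site 1 the core is the reverse strand of the letters in capitals, 2 bp from the midpoint.

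The promoter sites carried the same letters in the same order, as copies do. Each had AGGGCGTGT, a pyrimidine motif with its mismatch at position 9, on both strands. In the Hba-a1 promoter site these lie 23.5 and 48.5 bp from the midpoint, and in the Hba-a2 promoter site 5.5 and 30.5 bp from it. The plus strand copy ends where CCACCC begins. The copies lie 62 to 70 and 37 to 45 bp upstream of the start listed for each gene. Each promoter site also held 2 overlapping near matches on the minus strand, both with a mismatch at position 6. These were GGGGCTGGG, a pyrimidine motif 141 to 149 bp upstream, and TGGGGCTGG, a purine motif 140 to 148 bp upstream.

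The Hba-x promoter, which has no listed site, also held letters of both kinds. From 90 to 98 bp upstream of its RefSeq start, on the minus strand, stood AGGGTGGAG, the same 9 letters as at Nprl3 site 1. From 75 to 83 bp upstream, also on the minus strand, stood GGGGAGGGG, an exact purine motif. Among 32851 RefSeq promoters of 300 bp, 22.6% held an exact purine motif and 29.7% an exact pyrimidine motif, so such a match is not unusual in a promoter. An exact match was therefore present in the 300 bp promoter of the alpha-like gene without a site. It was absent within 50 bp of the midpoints of all 4 listed sites, which is a narrower search. Over the whole site, Nprl3 site 2 did hold one. Over the whole 200 kb window there were 84 exact pyrimidine matches, of which 1 lay inside a site, and 149 exact purine matches, of which 0 did.

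The RNA tables give for each gene the mean expression over all libraries of the fit, in log2 CPM (reads scaled to the size of the library), with no value for a single library or group. The libraries of the fit are not listed. Since both tables give the same mean for every gene, the levels below are read as averages that include K1, K1-E339K-ER and K1-ER cells. A comparison between the cell lines was not made here. The joined genes had the same length and mean in both tables. Hba-a1 had a mean of 3.79 and Hba-a2 of 3.80, and 29.2% and 29.3% of genes were lower. Hba-x was far lower, with a mean of 0.66 and 6.76% of genes below it. The median of all genes was 5.27.

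Per kb of the length in the tables, Hba-x was again the lowest of the 3 genes, and all 3 stood higher among all genes than by CPM alone. Hba-a1 and Hba-a2 both stood at 3.09 log2 CPM per kb, above 85.0% of genes for each. Hba-x stood at 0.06, above 37.4% of genes, and so 3.03 log2 units below Hba-a1 per kb. The median of all genes was 0.82. These standings were lower among short genes. Among genes under 5000 bp alone, 15.9%, 55.2% and 55.1% were lower per kb than Hba-x, Hba-a1 and Hba-a2. With 1 pooled value per gene there is no spread to set these differences against.

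**Figure D4:**
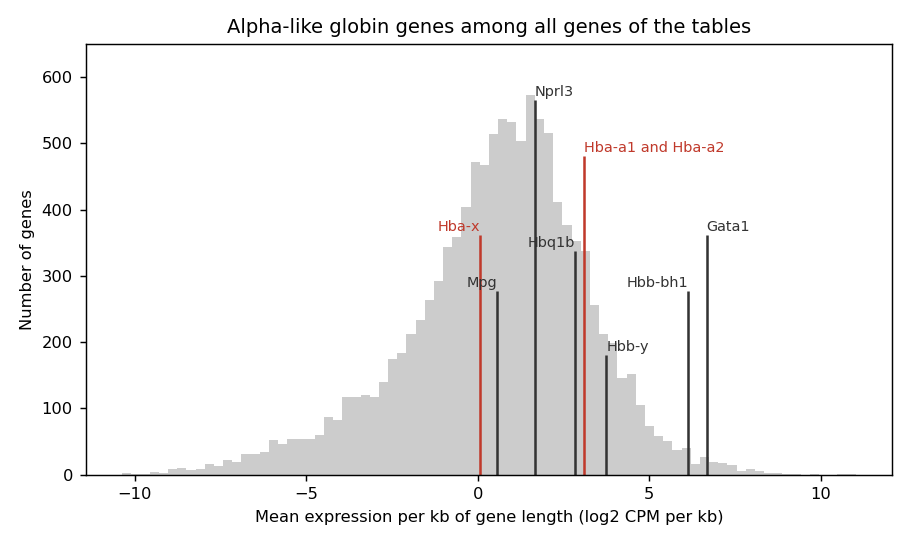
Number of genes (y axis) by mean expression per kb of gene length (x axis, log2 CPM per kb) for the 11364 genes, with the alpha-like globin genes in red and neighbours, beta-like globins and Gata1 in black; the height of a line has no meaning. Hba-x lies at 0.06, Hba-a1 and Hba-a2 share 1 line at 3.09, and Hbb-bh1 (6.14) and Gata1 (6.68) lie to the right of them.

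The values of Hba-a1 and Hba-a2 cannot be read as those of separate genes. Their coding sequences of 429 bases differ at 1 base (99.8% identical), whereas Hba-x differs from Hba-a1 at 163 bases (62.0% identical) and from Hba-a2 at 164 (61.8% identical). Of the 100 bp windows of Hba-a1, 69.5% were found in Hba-a2, and 83.3% of those of Hba-a2 were found in Hba-a1. Hba-x shared none with either. The means of Hba-a1 and Hba-a2 differed by less than 0.01 log2 units.

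The lengths that the tables give for the copies were also unlike those of other genes. Hba-a1 is listed with 1630 bp against an annotated span of 955 bp, a ratio of 1.71, and Hba-a2 with 1638 bp against 813 bp, a ratio of 2.02. Over 9961 genes with an annotated span, the median ratio was 1.00, and 215 genes (2.16%) had a ratio of at least 1.5. Hba-x, with 1516 bp against 1717 bp, had a ratio of 0.88. How reads and lengths were assigned between the copies is not given in the sources used here, and its part in the levels was not tested.

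Of the neighbours, Nprl3, a subunit of a complex that restrains TORC1 and the host of the enhancers, had a mean of 6.81 and stood at 1.67 per kb. Rhbdf1, an inactive rhomboid protein, had 5.74 and 2.07 per kb. Snrnp25, a part of the minor spliceosome, had 3.38 and 1.54 per kb. Mpg, a DNA glycosylase, had 3.19 and 0.56 per kb. Hbq1b, the theta-globin gene between Hba-a1 and Hba-a2, had 2.78 and 2.85 per kb. Per kb, Hba-a1 and Hba-a2 were thus above all 5 of these neighbours and Hba-x was below all 5, on the lengths of the tables and on values without error. Hbq1b shares sequence with its own copy Hbq1a, with 17.8% of its windows repeated in the genome. Hbq1a, Il9r and Sh3pxd2b were not found among the 11364 genes.

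The beta-like globins give the partner chains. Per kb, the embryonic gene Hbb-bh1 stood at 6.14, the embryonic gene Hbb-y at 3.75 and the adult gene Hbb-b1 at 3.39, against 3.09 for both Hba-a1 and Hba-a2 and 0.06 for Hba-x. The place of Hbb-y and Hbb-b1 in that order depended on the lengths listed for the alpha-globin copies. Per kb of the annotated span, a length added after the data were seen, Hba-a1 stood at 3.86 and Hba-a2 at 4.10, above Hbb-y (3.71) and Hbb-b1 (3.23) and below Hbb-bh1 (6.13), with Hba-x at -0.12. Hbb-b2 was not found among the 11364 genes.

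Of 10 factors and chaperones known to act on the locus or on its products, 8 had values, and Klf3 and Ahsp were not found. In log2 CPM all 8 stood above Hba-a1 and Hba-a2, the lowest at 5.37 against 3.79 and 3.80. Per kb of the listed length, 5 of them stood above Hba-a1 and Hba-a2 and 3 below. That order depended on the lengths: per kb of its annotated span, Hba-a2 stood at 4.10, above Ldb1 on its listed length. The 5 above were Gata1 (6.68 log2 CPM per kb), Tal1 (5.86), Klf1 (5.09), Zfpm1, a cofactor of GATA1 (5.01), and Ldb1, a partner of TAL1 (3.88). The 3 below were Nfe2, which binds the alpha-globin enhancers (2.52), Lmo2, another partner of TAL1 (1.81), and Atrx, a chromatin remodeller needed for full alpha-globin expression (0.99). All 8 were above Hba-x. Klf1 was read in cells that lack an intact Klf1 gene and partly carry a Klf1 transgene, and the pooled mean cannot tell the sources apart.

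The erythroid label of the cells was checked with markers. All 9 erythroid markers had values, 7 of them above the median of all genes in log2 CPM and the other 2 being Hba-a1 and Hbb-b1. The lowest of the 7, Alas2 at 5.29, lay close to that median of 5.27. Per kb, Alas2 at 0.75 was below the median of 0.82. The megakaryocyte marker Itga2b was also above the median in log2 CPM. Of the megakaryocyte markers 2 of 4 had values (Itga2b 5.30 and Gp9 1.79), of the myeloid markers 4 of 5, from 0.24 to 1.84 log2 CPM, and of the lymphoid and hepatocyte markers 0 of 3 and 0 of 2. Hba-x, at 0.66 log2 CPM, lay within the range of the myeloid markers on that scale, but per kb its 0.06 was above all 4 of them (-3.86 to -0.16).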

How the data were processed

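The authors mapped Ion Proton reads of 4sU-labelled RNA to mm9 with TopHat2 (2.0.10) and TMAP, dropped reads that mapped with low quality and ran limma-voom. The authors deposited for each gene a mean in log2 CPM over all libraries, and comparisons (fold changes, t, p-values and adjusted p-values), which were not used. For ChIP-seq the authors mapped reads with TMAP, excluded duplicate and multi-mapped reads, called peaks with MACS2 and GEM and deposited DiffBind concentrations in log2 of the mean normalized read count, with fold, p-value and FDR columns, which were not used. K1-ER values were included in both by the authors. The counting tool and the gene annotation are not given in the sources used here. No table gives counts, so the depth per library is unknown.

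The expression tables were joined on identifier, length and mean. Site differences were wild type minus mutant concentration, called at 2-fold. Levels per kb were the log2 mean minus the log2 length in kb. Motifs and repeated 100 bp windows were searched on both strands of NCBIM37, with gene positions from GENCODE M1. The RefSeq promoters (build GRCm38.p6, 250 bp before to 50 bp after the start) matched all 3 genes. Exact sequence placed that of Hba-x in NCBIM37, while those of Hba-a1 and Hba-a2 each had 2 exact copies. The starts used for Hba-a1 and Hba-a2 were those listed with the sites. The one listed for Hba-a1, 32183672, lies inside its GENCODE span, which begins at 32183511. The window search was tested on simulated sequence. Python 3.11.15 with pandas 2.3.3 and numpy 2.4.6 was used. The named genes were the 3 alpha-like globins, genes annotated in the window, factors known to act on the locus, beta-like globins and cell type markers, and the named sites were those in the window and the next on each side. The members and lists were chosen with earlier results of these data known. Alternatives were other lengths, filters, folds, centring, window edges, motif windows and window lengths.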

Additional observations from a re-analysis of the deposited data

How the results depend on the processing

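No paired analysis was possible because the tables give 1 pooled value per gene or protein and none per replicate, and for the same reason no replicate could be left out. With the exonic length of the annotation, the levels per kb of Hba-x, Hba-a1 and Hba-a2 moved to 0.75, 4.10 and 4.38, and with the annotated span, chosen after seeing the data, to -0.12, 3.86 and 4.10. Ranked among genes under 5000 bp alone, the shares of genes lower per kb were 15.9%, 55.2% and 55.1%, and among genes with a mean of at least 0 they were 35.4%, 84.6% and 84.5%. Centred on the median difference of all sites, the count of sites at least 2-fold higher for wild type was 3, but the 2 added are the promoter sites, whose values are at or near the lowest for both proteins, so that the shift alone fixes their call. Nprl3 site 2 then stood at 0.71, higher for wild type by less than 2-fold. The count stayed at 1 with a 4-fold limit, with sites of a larger concentration of at least 5, and in both other windows. The pyrimidine motif was at 1 site in the whole site and within 100 bp, and, in an alternative chosen after seeing the data, at 4 sites with 1 mismatch, while the purine motif was then at 1. The windows of Hba-a1 and Hba-a2 shared were 76.7% and 91.0% at 50 bp, 64.8% and 78.6% at 150 bp, and 88.3% and 86.0% when found again anywhere in the genome, the last also chosen after seeing the data. Without counts, neither the depth behind a value nor the smallest detectable difference is known.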
